A study of Mus musculus with 6 samples.

Results

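The 40 genes described here act in the G2 phase of the cell cycle and in mitosis. They encode mitotic cyclins and kinases, spindle checkpoint and kinetochore proteins, the chromosomal passenger complex, mitotic kinesins and cytokinesis factors. They were picked by gene symbol from the 18046 genes listed in the files, and all 40 were found. The libraries hold total RNA of naive CD4+ T cells from the spleen of C57BL/6 mice aged 3 weeks, stimulated in culture for 3 days through CD3 and CD28 in a Th1-polarizing medium. Cells received either 20 µM LPC (n = 3 libraries) or a vehicle (n = 3 libraries). The labels neither spell out LPC nor name the vehicle, and they leave it unsaid if the 3 LPC or the 3 vehicle libraries were made from different mice or cultures. The p-values below therefore measure the spread between these libraries, which may be technical.

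Cells that enter mitosis switch on a set of genes late in the cycle. Cyclin B with its kinase Cdk1 starts mitosis, Aurora and Polo kinases build the spindle, and the spindle checkpoint holds back the anaphase-promoting complex, a ubiquitin ligase, until every chromosome is attached. Many of these genes are kept off in resting cells by the DREAM complex and switched on by B-Myb and FoxM1. These factors act largely through a promoter element called the cell cycle genes homology region (CHR), which often has CCAAT boxes nearby. T cells divide repeatedly after they are stimulated, so transcripts of these genes are abundant in activated cultures.

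Promoter windows from RefSeq (GRCm38.p6), covering 250 bases before to 50 bases after each annotated start, were matched for 33 of the 40 genes. The windows below belong to the 5 genes with a window whose LPC and vehicle libraries did not overlap, and to Ccnb2, whose groups overlapped and whose window has the classic layout of CCAAT boxes ahead of a CHR. Each is written 5′ to 3′ on the strand of its gene. Capitals mark the letters of a CHR (TTTGAA or TTTAAA, or TTCAAA on the opposite strand) and of a CCAAT box (CCAAT, or ATTGG on the opposite strand).
Bub3 (chr7:131560120-131560419, plus strand): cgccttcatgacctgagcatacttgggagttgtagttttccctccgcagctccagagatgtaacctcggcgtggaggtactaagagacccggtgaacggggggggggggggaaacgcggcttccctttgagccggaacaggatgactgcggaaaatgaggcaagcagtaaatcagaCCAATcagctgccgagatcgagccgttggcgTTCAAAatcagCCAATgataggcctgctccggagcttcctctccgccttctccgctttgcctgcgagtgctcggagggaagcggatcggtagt
Ccnb1 (chr13:100786437-100786736, minus strand): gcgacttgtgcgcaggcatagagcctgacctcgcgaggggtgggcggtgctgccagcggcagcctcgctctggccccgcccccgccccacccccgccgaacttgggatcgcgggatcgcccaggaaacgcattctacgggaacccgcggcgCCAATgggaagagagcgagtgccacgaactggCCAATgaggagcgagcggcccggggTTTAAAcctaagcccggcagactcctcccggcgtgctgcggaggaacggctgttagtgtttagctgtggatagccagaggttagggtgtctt
Plk1 (chr7:122159185-122159484, plus strand): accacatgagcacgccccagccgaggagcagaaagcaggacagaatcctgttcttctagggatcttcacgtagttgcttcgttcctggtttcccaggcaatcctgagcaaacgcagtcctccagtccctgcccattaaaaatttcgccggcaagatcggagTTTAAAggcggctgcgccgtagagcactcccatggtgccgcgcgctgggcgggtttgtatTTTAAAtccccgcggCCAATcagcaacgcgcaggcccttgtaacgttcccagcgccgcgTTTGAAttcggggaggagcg
Birc5 (chr11:117848987-117849286, plus strand): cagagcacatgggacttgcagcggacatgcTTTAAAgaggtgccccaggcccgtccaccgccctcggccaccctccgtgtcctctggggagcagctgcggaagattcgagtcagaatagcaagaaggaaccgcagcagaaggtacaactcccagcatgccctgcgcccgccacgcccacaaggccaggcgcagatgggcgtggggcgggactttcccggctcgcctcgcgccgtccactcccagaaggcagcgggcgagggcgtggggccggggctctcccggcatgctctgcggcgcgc
Cdca8 (chr4:124936868-124937167, minus strand): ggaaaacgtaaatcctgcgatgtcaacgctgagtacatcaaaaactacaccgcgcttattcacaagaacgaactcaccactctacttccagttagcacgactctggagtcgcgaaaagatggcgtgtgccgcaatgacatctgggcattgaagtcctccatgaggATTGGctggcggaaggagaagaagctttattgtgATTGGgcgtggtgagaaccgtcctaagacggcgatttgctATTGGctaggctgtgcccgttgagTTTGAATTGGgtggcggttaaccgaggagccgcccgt
Ccnb2 (chr9:70421505-70421804, minus strand): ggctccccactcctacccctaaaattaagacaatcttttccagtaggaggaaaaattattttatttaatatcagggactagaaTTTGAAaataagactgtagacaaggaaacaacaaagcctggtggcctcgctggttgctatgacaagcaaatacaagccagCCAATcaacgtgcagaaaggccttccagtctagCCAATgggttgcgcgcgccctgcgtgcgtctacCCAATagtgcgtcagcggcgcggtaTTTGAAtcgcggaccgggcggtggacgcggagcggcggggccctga

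In Ccnb2 a CHR began 4 bases after the annotated start and CCAAT boxes began 87, 54 and 21 bases before it. In Ccnb1 the CHR began 42 bases before the start, with CCAAT boxes 99 and 67 bases before it. Plk1 had 3 CHR matches and 1 CCAAT box. The Bub3 window shown had a CHR 43 bases before the start between CCAAT boxes at 74 and 32 bases. Bub3 has another annotated start, and the same CHR began 167 bases before it, with the CCAAT boxes at 198 and 156 bases. In Cdca8 the CHR 13 bases after the start shared its last letter with 1 of its 4 CCAAT boxes. The Birc5 window held a CHR match 220 bases before the start and no CCAAT letters. These matches describe letters in a window and say nothing of binding.

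The same letters were common across the gene set. A CHR match within 50 bases of an annotated start was present in 26 of 33 genes (78.8%), against 9.54% of all 27025 genes in the promoter table and 6.05% of the 8244 tested genes with a window. A CCAAT box was present in 25 of 33 (75.8%), against 41.1% of all genes in the table. Both together, a CHR near the start and a CCAAT box, were found in 23 of 33 genes (69.7%) and in 3.88% of all genes in the table. Windows on chromosome 18 were left out of these counts.

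The question was how transcripts of this programme differed when the T cells were stimulated with LPC. Expression was deposited as FPKM, fragment counts scaled for exon length and for mapped reads, which are relative to the rest of each library. Differences were tested with limma on log2(FPKM + 1) across 10138 genes that reached 1 FPKM in at least 3 libraries, and a gene passed at a Benjamini-Hochberg adjusted p under 0.05. A log2 change is LPC minus vehicle on that scale and slightly understates the change of genes with low values. All 40 mitosis genes reached 1 FPKM in every library, and their lowest value was 3.80 FPKM.

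Most of the mitosis programme stayed within a narrow range. With LPC, 2 of the 40 genes rose, none fell and 38 did not pass (5% passed). Over all tested genes 13.7% passed in either direction, 5.82% higher and 7.91% lower with LPC. The genes that rose were Kif20a, a cytokinesis kinesin, and Bub3, a spindle checkpoint protein. The median log2 change was 0.01, against -0.04 over all tested genes, and the 40 values ran from -0.23 (Cdca8) to 0.50 (Kif20a), with 21 above 0 and 19 below. At an unadjusted limma p under 0.05 the count was 7 of 40, against 3047 of all 10138 tested genes. The 95% interval of the log2 change lay within a 1.5-fold difference in either direction for 8845 of the 10138 tested genes. It did so for 39 of the 40 mitosis genes, Kif20a being the exception. A gene missing the threshold was thus bounded in size, but not shown to be equal. None of the 40 passed with a change over 2-fold, the rule named in the labels' protocols, which 0.197% of tested genes met.

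**Figure D1:**
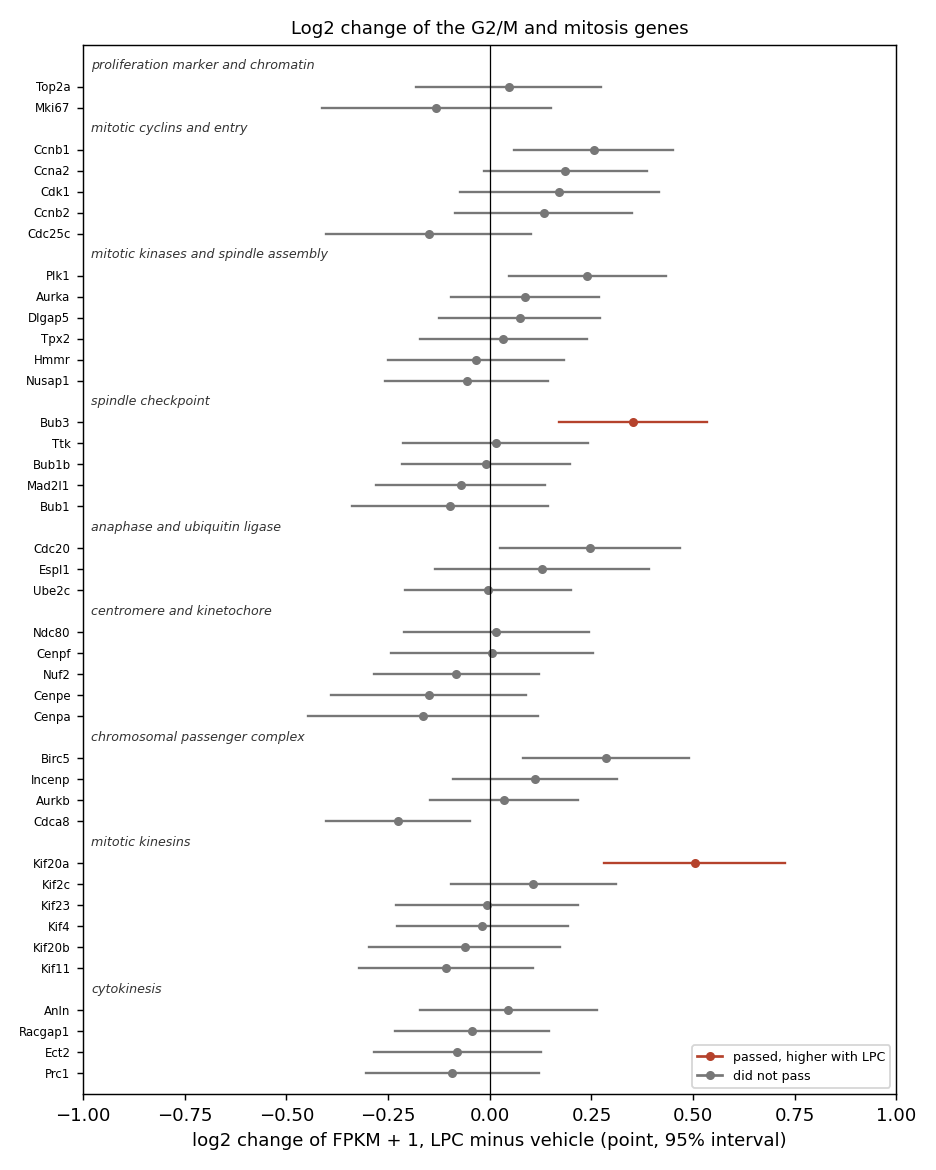
Log2 change of FPKM + 1, LPC minus vehicle, for the 40 mitosis genes grouped by role, with the point estimate and its 95% interval. Kif20a (0.50) and Bub3 (0.35) are drawn as passed and the other genes scatter around 0, down to -0.23 for Cdca8.

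In bulk RNA of this kind, a smaller share of cells in mitosis and less transcript per mitotic cell cannot be told apart. The summed FPKM of the 40 genes was 1662, 1683 and 1604 in LPC replicates 1 to 3, against 1513, 1597 and 1687 in vehicle replicates 1 to 3. The ranges of the groups overlapped. These sums made up 0.285%, 0.299% and 0.2502% of the FPKM total in the LPC libraries and 0.263%, 0.287% and 0.287% in the vehicle libraries.

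Much of the variation ran between replicates. Vehicle replicate 1 held the lowest value of 16 of the 40 genes and the highest of 0, and its 40 genes had a median deviation of -0.11 from their 6-library means on the log2 scale. LPC replicate 3 held the lowest value of a further 16 genes, with a median deviation of -0.09. The median deviation of all tested genes was -0.07 in LPC replicate 3 and 0.02 in vehicle replicate 1. Vehicle replicates 2 and 3 each held the highest value of 11 genes. LPC replicates 1 and 2 held the highest value of 7 and 9 genes. The low values of LPC replicate 3 lay with long transcripts. Its median deviation was -0.13 over the 20 genes with longer transcripts and 0.03 over the 20 with shorter ones. Over all tested genes, median deviation in that library was -0.25 for the top decile of transcript length. LPC replicate 3 also had the largest FPKM total (641026, against 556561 to 588274 in the other libraries) and the smallest share of genes at 0 (17.9%, against 19.4% to 20.2%).

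**Figure D2:**
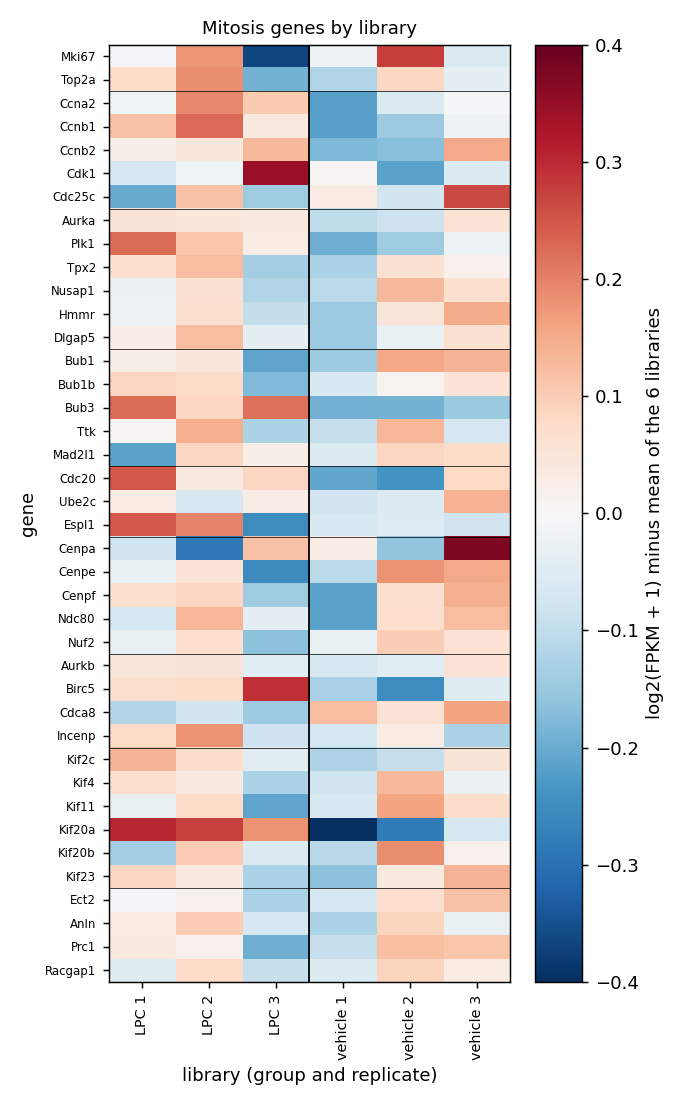
Heat map of log2(FPKM + 1) of each of the 40 mitosis genes minus its mean over the 6 libraries, with LPC replicates in the left columns, vehicle replicates in the right columns and genes in rows by role. Vehicle replicate 1 and LPC replicate 3 each carry the lowest value of 16 genes.

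The files do not hold read totals. Low values of genes came nearest to whole reads at about 19 to 19.5 M reads per library, which is an estimate. The standard error of the log2 change was between 0.08 and 0.13 for the 40 genes. Mean levels ran from 4.25 FPKM for Anln to 280 FPKM for the ubiquitin-conjugating enzyme gene Ube2c, and 28 genes lay between 10 and 60 FPKM. The T cell markers summed to 950 to 1023 FPKM in LPC libraries and 984 to 1016 FPKM in vehicle libraries. Within them Cd4 was lower in every LPC library without passing (log2 change -0.27, limma adjusted p = 0.0875). The Th1 markers summed to 1523 to 1675 FPKM with LPC and 1539 to 1690 FPKM with vehicle, mostly Ifng. Of these markers Stat4, which transmits interleukin-12 signals, fell (-0.35, limma adjusted p = 0.03), a call lost on leaving out any library except LPC replicate 2 (0.0541 to 0.132). The Stat4 call was also lost without a filter on low values (limma adjusted p = 0.07985). The CD8 T cell markers summed to 10.9 to 12.8 FPKM with LPC and 13.5 to 14.5 FPKM with vehicle, almost all of it Cd8b1, and Cd8a was at 0.33 FPKM or less. The B cell markers summed to 0.52 to 0.89 FPKM with LPC and 1.01 to 1.05 FPKM with vehicle, and the NK cell markers to 0.49 to 0.84 FPKM with LPC and 0.18 to 0.39 FPKM with vehicle, with Ncr1 at 0 in every library. For these 3 cell types the groups did not overlap. Erythroid markers summed to at most 0.91 FPKM and myeloid markers to at most 5.59 FPKM, with overlapping groups. Their part in the results was not tested.

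None of the 5 genes of mitotic entry passed. Ccnb1, which encodes cyclin B1 (chr13:100778739-100786486), had 47.2, 50.9 and 44.6 FPKM with LPC, against 37.2, 39.1 and 42.7 FPKM with vehicle. Every LPC library lay above every vehicle library, as in 5 of the 40 genes, against 13.7% of all tested genes. Its mean was 47.6 ± 3.20 FPKM with LPC and 39.7 ± 2.82 FPKM with vehicle (SD, n = 3 each), a log2 change of 0.26 (SE 0.09, limma adjusted p = 0.0777). Ccnb1 passed without LPC replicate 3 (limma adjusted p = 0.0439) and after median centring (0.0414). Ccna2, which encodes cyclin A2, had 50.7, 58.7 and 55.2 FPKM with LPC, against 44.0, 49.2 and 51.2 FPKM with vehicle. Its groups overlapped only through the lowest LPC library (log2 change 0.19, limma adjusted p = 0.198). Ccnb2, encoding cyclin B2, had 40.3, 40.8 and 43.4 FPKM with LPC, against 34.8, 35.1 and 44.1 FPKM with vehicle. The third vehicle library was the highest of all 6 (log2 change 0.13, limma adjusted p = 0.397). Cdk1, the kinase that both B cyclins activate, had 28.5, 29.6 and 38.4 FPKM with LPC, against 30.3, 25.7 and 28.8 FPKM with vehicle. The third LPC library stood above the other 5 (log2 change 0.17, limma adjusted p = 0.328). The phosphatase gene Cdc25c, whose product activates Cdk1, had a log2 change of -0.15 (limma adjusted p = 0.409).

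The proliferation markers did not pass. Mki67, whose product Ki-67 coats mitotic chromosomes, had 58.0, 66.0 and 44.9 FPKM with LPC, against 57.4, 70.8 and 55.9 FPKM with vehicle. The groups overlapped, and LPC replicate 3 was the lowest of the 6 (log2 change -0.13, 95% interval -0.41 to 0.15, limma adjusted p = 0.527). Top2a, the topoisomerase that untangles sister chromatids, had 117, 127 and 97.7 FPKM with LPC, against 103, 118 and 109 FPKM with vehicle. The LPC libraries spanned the vehicle range, and the means were 114 ± 15.0 FPKM with LPC and 110 ± 7.93 FPKM with vehicle (SD, n = 3 each). Its log2 change was 0.05 (95% interval -0.18 to 0.27, limma adjusted p = 0.802).

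Among the kinases and spindle assembly factors, none passed. Plk1, the Polo kinase of mitosis (chr7:122159435-122169884), had 66.3, 61.3 and 57.9 FPKM with LPC, against 49.4, 51.2 and 55.9 FPKM with vehicle. The groups did not overlap, by a margin of a few percent between the lowest LPC and the highest vehicle library. Its log2 change was 0.24 (SE 0.09, limma adjusted p = 0.0916), and it passed without LPC replicate 3 (0.04998). Aurka, the Aurora kinase of the spindle poles, averaged 44.5 ± 0.259 FPKM with LPC and 42.0 ± 2.58 FPKM with vehicle (log2 change 0.09). Tpx2, which activates Aurora A on the spindle, had a log2 change of 0.03. The other spindle factors Dlgap5 (0.07), Hmmr (-0.03) and Nusap1 (-0.06) also lay near 0, with limma adjusted p from 0.626 to 0.853 for the 3 genes.

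The spindle checkpoint was split. Bub3, which brings the Bub1 and BubR1 kinases to kinetochores (chr7:131560367-131571895), had 75.8, 68.8 and 75.7 FPKM with LPC, against 56.6, 56.7 and 58.4 FPKM with vehicle. The lowest LPC library lay well above the highest vehicle library. Bub3 rose with LPC to 73.4 ± 4.04 FPKM, against 57.2 ± 1.01 FPKM with vehicle (SD, n = 3 each), a log2 change of 0.35 (SE 0.08, limma adjusted p = 0.016). The call was lost without LPC replicate 1 (0.0517), vehicle replicate 1 (0.0852) or vehicle replicate 2 (0.0781). The other checkpoint genes did not pass. Bub1b, which encodes BubR1, had 25.4, 25.2 and 21.0 FPKM with LPC, against 22.8, 24.1 and 24.9 FPKM with vehicle (log2 change -0.01, limma adjusted p = 0.963). Mad2l1, whose product Mad2 binds Cdc20, had 44.3, 54.6 and 52.5 FPKM with LPC, against 49.6, 54.8 and 54.4 FPKM with vehicle (log2 change -0.07, limma adjusted p = 0.654). For both genes the groups overlapped. The checkpoint kinase genes Bub1 and Ttk had log2 changes of -0.10 and 0.01. The ratio of Bub3 to Bub1b FPKM was 2.99, 2.73 and 3.60 in LPC libraries, against 2.48, 2.35 and 2.35 in vehicle libraries. This ratio, like the others below, was formed after the values were seen and is given without a test.

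Of the anaphase genes, Cdc20, the activator of the anaphase-promoting complex, had 59.1, 50.8 and 52.7 FPKM with LPC, against 42.8, 41.8 and 52.5 FPKM with vehicle. The groups overlapped only through the third vehicle library (log2 change 0.25, SE 0.10, limma adjusted p = 0.127). Ube2c, which works with that ligase and was the most abundant of the 40, had 286, 268 and 285 FPKM with LPC, against 265, 270 and 308 FPKM with vehicle. Its means were 280 ± 10.4 and 281 ± 23.5 FPKM with LPC and vehicle (limma adjusted p = 0.982). Espl1, encoding separase, which cuts cohesin, had a log2 change of 0.13 (limma adjusted p = 0.505).

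The centromere and kinetochore genes did not pass. Cenpa, the centromeric histone variant, had 58.7, 50.8 and 67.4 FPKM with LPC, against 63.3, 55.6 and 80.6 FPKM with vehicle. The ranges overlapped and replicate 3 was the highest library within each group (log2 change -0.16, limma adjusted p = 0.421). Cenpe, a kinetochore motor, had 11.3, 12.04 and 9.52 FPKM with LPC, against 10.7, 13.2 and 12.9 FPKM with vehicle (log2 change -0.15, limma adjusted p = 0.383). Ndc80 had 22.3, 25.8 and 22.8 FPKM with LPC, against 20.1, 24.6 and 25.7 FPKM with vehicle (log2 change 0.02, limma adjusted p = 0.939). Its partner Nuf2, in the complex that grips microtubules, had 17.1, 18.3 and 15.4 FPKM with LPC, against 17.0, 18.7 and 18.2 FPKM with vehicle (log2 change -0.08, limma adjusted p = 0.590). The ratio of Ndc80 to Nuf2 overlapped between groups.

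The chromosomal passenger complex, which corrects faulty chromosome attachments and directs cytokinesis, had members on both sides. Birc5, encoding survivin (chr11:117849237-117855743), had 75.0, 75.5 and 88.1 FPKM with LPC, against 65.5, 60.1 and 69.3 FPKM with vehicle. Cdca8, encoding borealin (chr4:124918465-124936917), had 76.2, 78.4 and 74.6 FPKM with LPC, against 90.2, 86.0 and 92.4 FPKM with vehicle. For Birc5 every LPC library was higher. Cdca8 was the 1 gene of the 40 with every LPC library lower, a pattern held by 20.7% of all tested genes. Birc5 averaged 79.5 ± 7.47 FPKM with LPC and 65.0 ± 4.60 FPKM with vehicle (SD, n = 3 each), a log2 change of 0.29 (SE 0.10, limma adjusted p = 0.0615). Cdca8 averaged 76.4 ± 1.88 FPKM with LPC and 89.5 ± 3.25 FPKM with vehicle (SD, n = 3 each), a log2 change of -0.23 (SE 0.08, limma adjusted p = 0.0847). Neither passed, although Birc5 did without LPC replicate 2 (0.0489). Survivin and borealin bind each other in the complex, and the ratio of Birc5 to Cdca8 FPKM was 0.983, 0.963 and 1.18 in LPC libraries, against 0.727, 0.699 and 0.749 in vehicle libraries. The lowest LPC ratio thus lay above the highest vehicle ratio. The kinase gene of the complex, Aurkb, had 51.7, 51.9 and 48.5 FPKM with LPC, against 47.8, 48.4 and 52.1 FPKM with vehicle (log2 change 0.04, limma adjusted p = 0.814). Its scaffold gene Incenp had 44.96, 48.44 and 40.22 FPKM with LPC, against 40.6, 43.5 and 39.0 FPKM with vehicle (log2 change 0.11, limma adjusted p = 0.443). The ratio of Aurkb to Incenp overlapped between groups.

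**Figure D3:**
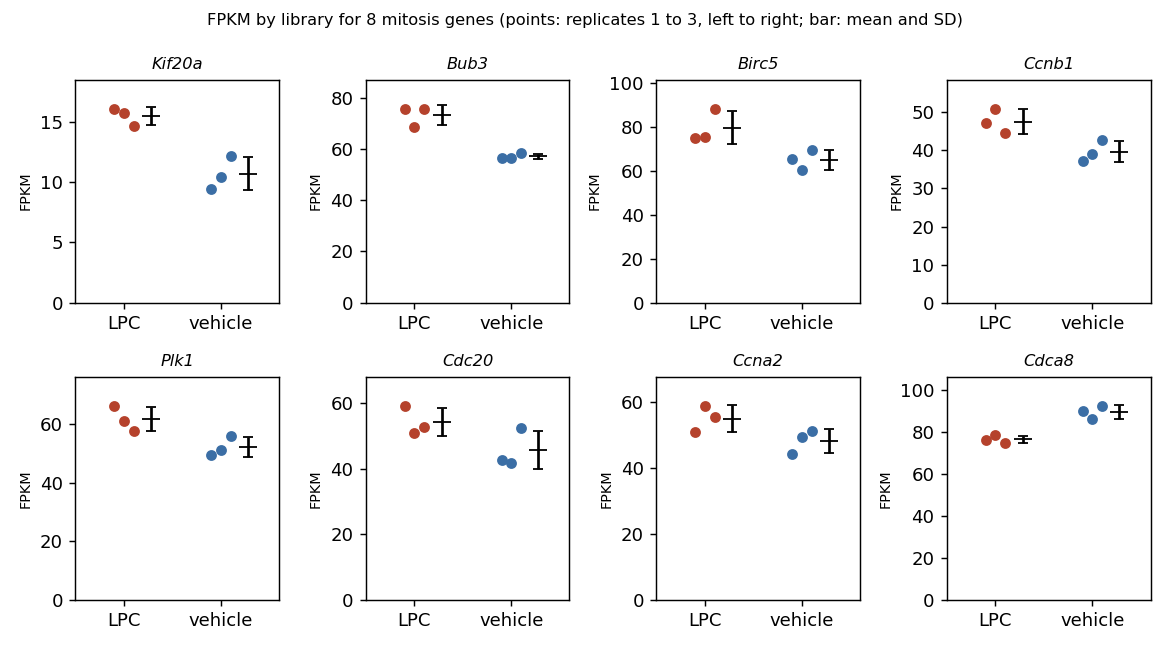
FPKM of 8 mitosis genes in each library, LPC at the left and vehicle at the right of every panel, with replicates 1 to 3 as points and the mean with its SD as a bar. LPC libraries lie above vehicle libraries for Kif20a, Bub3, Birc5, Ccnb1 and Plk1 and below them for Cdca8, while Cdc20 and Ccna2 overlap.

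The kinesin Kif20a had the largest log2 change of the 40 genes. Its product MKLP2 carries the passenger complex to the spindle midzone for cytokinesis. Kif20a (chr18:34624624-34633277) had 16.1, 15.7 and 14.7 FPKM with LPC, against 9.45, 10.4 and 12.2 FPKM with vehicle. The groups did not overlap, and vehicle replicate 1 was the lowest library. Kif20a rose with LPC to 15.5 ± 0.729 FPKM, against 10.7 ± 1.38 FPKM with vehicle (SD, n = 3 each), a log2 change of 0.50 (SE 0.10, limma adjusted p = 0.00787). The call was lost without vehicle replicate 1 (0.0555) and, narrowly, when all genes were tested without a filter on low values (0.0507). Kif20a shares 4930 bases of its locus with Cdc23, and strand handling is not given in the sources used here. Cdc23, a subunit of the anaphase-promoting complex, had 14.6, 16.3 and 13.6 FPKM with LPC, against 13.9, 14.9 and 14.5 FPKM with vehicle. Cdc23 did not pass (limma adjusted p = 0.840).

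The other kinesins did not pass. Kif23, encoding MKLP1, had 15.2, 14.6 and 13.0 FPKM with LPC, against 12.6, 14.7 and 15.7 FPKM with vehicle (log2 change -0.01, limma adjusted p = 0.977). The ratio of Kif20a to Kif23 FPKM was 1.06, 1.07 and 1.13 in LPC libraries, against 0.750, 0.708 and 0.773 in vehicle libraries, with no overlap. Racgap1, the partner of MKLP1 in centralspindlin, had 45.2, 49.4 and 43.8 FPKM with LPC, against 45.04, 49.8 and 47.8 FPKM with vehicle (log2 change -0.04, limma adjusted p = 0.777). The log2 change was 0.11 for Kif2c, which depolymerizes microtubules, -0.11 for Kif11, which pushes spindle poles apart, -0.02 for the chromosome motor Kif4 and -0.06 for Kif20b. The cytokinesis genes Anln (0.04), Ect2 (-0.08) and Prc1 (-0.09) and the kinetochore gene Cenpf (0.01) had limma adjusted p of 0.563 to 0.983.

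The log2 changes varied with transcript composition. Over the 10018 tested genes with a matched transcript, Pearson's r of the log2 change was 0.26 against GC share and -0.29 against log2 length, so the tendency was present across the libraries' genes at large. Over the 40 mitosis genes the same values were r = 0.41 and rho = 0.47 for GC share and r = -0.15 and rho = -0.15 for length. These genes share the same 6 libraries and are not independent, so the values are a description. The 20 mitosis genes with shorter transcripts, of 967 to 2965 bases, held 4 of the 5 genes with every LPC library higher, and Cdca8. The 20 with longer transcripts, of 3016 to 11130 bases, held Kif20a. Among all tested genes with transcripts of at most 2990 bases, every LPC library was higher for 982 of 5427 and lower for 990. For longer transcripts the counts were 405 higher and 1094 lower of 4591. When each library's trend with GC share and length was removed, 7 of the 40 genes passed, 6 higher (Kif20a, Bub3, Birc5, Ccnb1, Plk1 and Ccna2) and 1 lower (Cdca8). Limma adjusted p was then 0.0189 for Birc5, 0.00634 for Ccnb1, 0.0432 for Plk1, 0.0203 for Ccna2 and 0.0143 for Cdca8. The same step raised the count over all genes to 2331, with 1172 higher and 1159 lower, against 1392 with 590 higher and 802 lower.

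**Figure D4:**
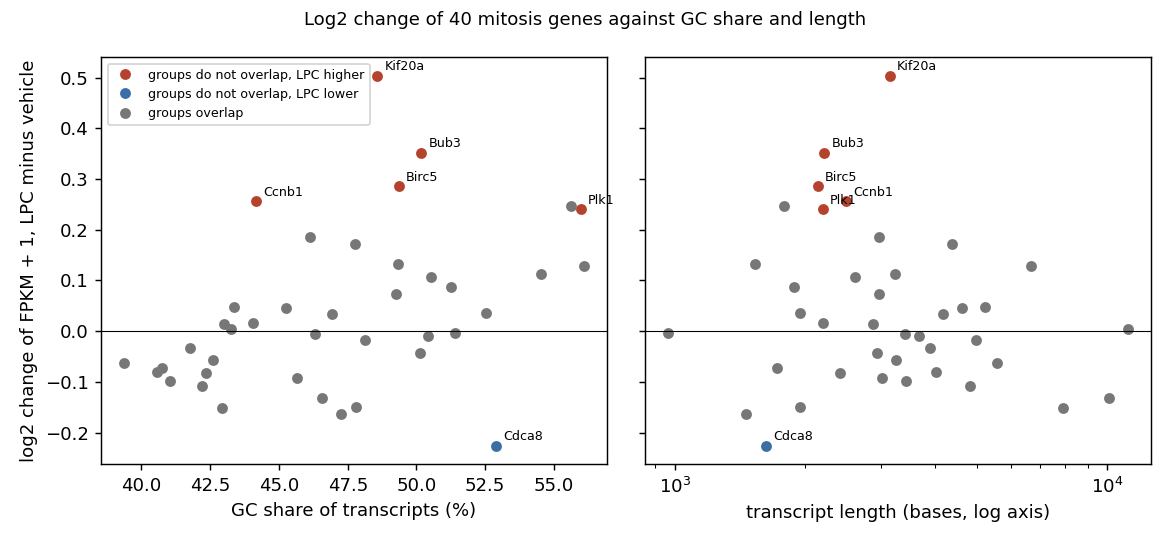
Log2 change of FPKM + 1, LPC minus vehicle, of the 40 mitosis genes against the GC share (%) of their transcripts on the left and transcript length (bases, log axis) on the right. Points are genes, with red for every LPC library higher, blue for every LPC library lower and grey for overlapping groups, and log2 change tends to be larger at higher GC share (r = 0.41).

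A wider list of 111 further mitosis genes was read from the same fit. In it 5 genes rose, 4 fell and 102 did not pass (8.11% passed, against 13.7% of all tested genes), with a median log2 change of -0.04. None of the 21 condensin and cohesin genes passed. The genes that rose were led by Ccnf, encoding cyclin F, a ubiquitin ligase subunit. Ccnf had 11.98, 11.62 and 11.46 FPKM with LPC, against 8.06, 8.70 and 9.18 FPKM with vehicle (log2 change 0.40, limma adjusted p = 0.0144). Gtse1, a microtubule-binding protein of G2 and mitosis, had 37.4, 37.6 and 34.1 FPKM with LPC, against 29.1, 30.2 and 26.8 FPKM with vehicle (0.33, limma adjusted p = 0.0276). Of 26 further genes of mitotic entry, exit and the anaphase-promoting complex, 3 rose, 1 fell and 22 did not pass (15.4% passed). The subunits of that complex that passed went in both directions. Anapc5 rose, with 122, 130 and 120 FPKM with LPC, against 103, 102 and 103 FPKM with vehicle (0.27, limma adjusted p = 0.0442). Anapc11, the RING subunit of the complex, rose, with 23.6, 23.3 and 27.5 FPKM with LPC, against 20.3, 19.6 and 19.4 FPKM with vehicle (0.31, limma adjusted p = 0.0419). Another subunit, Cdc27, fell, with 18.4, 20.4 and 16.8 FPKM with LPC, against 21.9, 25.7 and 22.6 FPKM with vehicle (-0.33, limma adjusted p = 0.0461). The groups did not overlap for any of these genes. The subunits Anapc1, Anapc2, Anapc4, Anapc7, Anapc10, Cdc16, Cdc23 and Cdc26 did not pass.

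Of the 34 other kinetochore genes in that list, 1 rose, 3 fell and 30 did not pass (11.8% passed, against 13.7% of all tested genes). Spc24, a subunit of the Ndc80 complex, rose, with 33.7, 32.3 and 39.7 FPKM with LPC, against 28.2, 27.1 and 28.4 FPKM with vehicle (log2 change 0.32, limma adjusted p = 0.0407). Its direct partner Spc25 did not pass (-0.19, limma adjusted p = 0.185), and the ratio of Spc24 to Spc25 FPKM was 2.01, 1.70 and 2.498 in LPC libraries, against 1.48, 1.31 and 1.45 in vehicle libraries. The lowest LPC ratio was above the highest vehicle ratio. Oip5, part of the machinery that loads the centromeric histone, fell, with 15.9, 22.3 and 21.5 FPKM with LPC, against 26.4, 26.8 and 25.7 FPKM with vehicle (-0.40, limma adjusted p = 0.0351). Knstrn, a kinetochore and spindle adaptor, fell, with 18.4, 23.6 and 21.4 FPKM with LPC, against 26.9, 27.1 and 29.1 FPKM with vehicle (-0.38, limma adjusted p = 0.0248). Ska1, of the complex that couples kinetochores to microtubule ends, fell, with 7.45, 8.99 and 9.18 FPKM with LPC, against 11.06, 11.26 and 11.03 FPKM with vehicle (-0.35, limma adjusted p = 0.0348). In each of the 3 genes that fell, LPC replicate 1 was the lowest library.

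The 9 calls depended on single libraries. All 9 were lost without LPC replicate 1 (limma adjusted p 0.0527 to 0.1204), without vehicle replicate 1 (0.0775 to 0.156) and without vehicle replicate 2 (0.0564 to 0.231). Without vehicle replicate 3 all but Ccnf were lost (0.0551 to 0.121). Without LPC replicate 3, Cdc27, Spc24 and Anapc11 were lost (0.0879 to 0.0960), and without LPC replicate 2, Anapc5 was lost (0.0603). Calls also depended on processing. After median centring Oip5, Ska1, Cdc27 and Spc24 were lost (limma adjusted p 0.05263 to 0.08005). After quantile normalization Ska1 (0.06777) and Anapc5 (0.1045) were lost. Without a filter on low values all but Ccnf were lost (0.05525 to 0.1279). Oip5 shares 208 bases with Nusap1 and Cdc27 shares 4604 bases with Myl4, which was at 1.89 FPKM or less.

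Of 23 regulators of this programme, 3 rose and 2 fell with LPC (21.7% passed, against 13.7% of all tested genes). The list was chosen with earlier results of these data known, so this share is only a description. Cdkn1a, encoding the cyclin-dependent kinase inhibitor p21, had 159, 154 and 175 FPKM with LPC, against 123, 119 and 99.1 FPKM with vehicle. All LPC libraries were higher, and Cdkn1a rose by a log2 change of 0.52 (SE 0.10, limma adjusted p = 0.00673), a call kept under all 14 alternatives (largest adjusted p 0.0474). Trp53, encoding p53, which activates Cdkn1a, had 151, 135 and 140 FPKM with LPC, against 113, 107 and 107 FPKM with vehicle (0.38, limma adjusted p = 0.0127). Cdk4, the G1 kinase bound by D cyclins, had 286, 264 and 307 FPKM with LPC, against 216, 213 and 223 FPKM with vehicle (0.39, limma adjusted p = 0.0147). Both lost their call without vehicle replicate 1 (0.0536 for Trp53 and 0.0780 for Cdk4) and without vehicle replicate 2 (0.0690 for Trp53 and 0.0752 for Cdk4).

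Rb1, encoding the retinoblastoma protein that restrains E2F factors, had 14.7, 17.1 and 13.6 FPKM with LPC, against 18.7, 22.9 and 20.5 FPKM with vehicle. It fell (log2 change -0.43, limma adjusted p = 0.019), and the call was lost without LPC replicate 1 (0.0710) or vehicle replicate 2 (0.0977) and without a filter on low values (0.0810). Cdkn2c, which encodes the Cdk4 and Cdk6 inhibitor p18, had 7.11, 8.58 and 8.65 FPKM with LPC, against 10.8, 10.1 and 11.3 FPKM with vehicle. It fell (-0.37, limma adjusted p = 0.0301), a call lost without LPC replicate 1 (0.109) or vehicle replicates 1 (0.112), 2 (0.0605) or 3 (0.0915). Cdkn2c also missed the threshold after quantile normalization (0.0597) or median centring (0.0588) and without a filter on low values (0.0872). A kinase inhibitor gene that rose and another that fell thus stood among the 5 regulators that passed.

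The direct activators of mitotic genes did not pass. Foxm1 had 24.7, 26.1 and 20.1 FPKM with LPC, against 26.9, 28.6 and 26.7 FPKM with vehicle. Mybl2, encoding B-Myb, had 20.4, 19.0 and 19.5 FPKM with LPC, against 17.1, 16.6 and 15.2 FPKM with vehicle. The groups did not overlap for either gene, lower with LPC for Foxm1 (log2 change -0.21, limma adjusted p = 0.183) and higher for Mybl2 (0.26, limma adjusted p = 0.0732). Mybl2 passed after median centring (0.0408), quantile normalization (0.0459) or removal of GC and length trends (0.0203). Foxm1 passed, lower, only with those trends removed and replicate number as a term (log2 change -0.18, limma adjusted p = 0.0483). Of the core shared by DREAM and the B-Myb complex, Lin54, whose product binds the CHR, had 12.5, 14.4 and 10.8 FPKM with LPC, against 15.7, 17.4 and 15.1 FPKM with vehicle. Every LPC library was lower, but Lin54 did not pass (-0.34, limma adjusted p = 0.0570), although it did without LPC replicate 2 (0.0193). With GC and length trends removed Lin54 passed only when replicate number was also a term (log2 change -0.20, limma adjusted p = 0.0311). Every LPC library was lower for 6 of the 23 regulators and higher for 4, against 20.7% and 13.7% of all tested genes. Lin37 had 23.2, 21.1 and 21.2 FPKM with LPC, against 23.1, 23.6 and 24.4 FPKM with vehicle (-0.11, limma adjusted p = 0.394). Lin37, Lin9 (-0.08) and Lin52 (-0.04) did not pass and their groups overlapped. Lin37 passed only with GC and length trends removed and replicate number as a term (-0.21, limma adjusted p = 0.0402). Rbl2, encoding the DREAM pocket protein p130, had 10.45, 10.8 and 8.65 FPKM with LPC, against 11.9, 12.9 and 11.2 FPKM with vehicle. Every LPC library was lower, and Rbl2 did not pass (-0.25, limma adjusted p = 0.127). Rbl2 shares 12064 bases of its locus with Aktip, which did not pass either (-0.28, limma adjusted p = 0.0668). Any part of shared reads in this was not tested. The DREAM factors E2f4 (0.06) and Tfdp1 (0.08) and the related pocket protein gene Rbl1 (-0.14) did not pass either.

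The kinase inhibitor gene Cdkn1b, encoding p27, had 21.0, 25.1 and 19.7 FPKM with LPC, against 28.2, 28.6 and 25.4 FPKM with vehicle. The groups did not overlap and the gene did not pass (log2 change -0.31, limma adjusted p = 0.0569). It did pass without LPC replicate 2 (0.0157) and once GC and length trends were taken out (0.0446). E2f1 (0.20), E2f7 (0.02), Cdkn2d (0.10), Ccnd2 (-0.08), Ccnd3 (-0.02) and Cdk6 (-0.02) had overlapping groups, and E2f8 averaged 15.6 ± 2.48 FPKM with LPC and 15.7 ± 2.92 FPKM with vehicle (SD, n = 3 each).

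**Figure D5:**
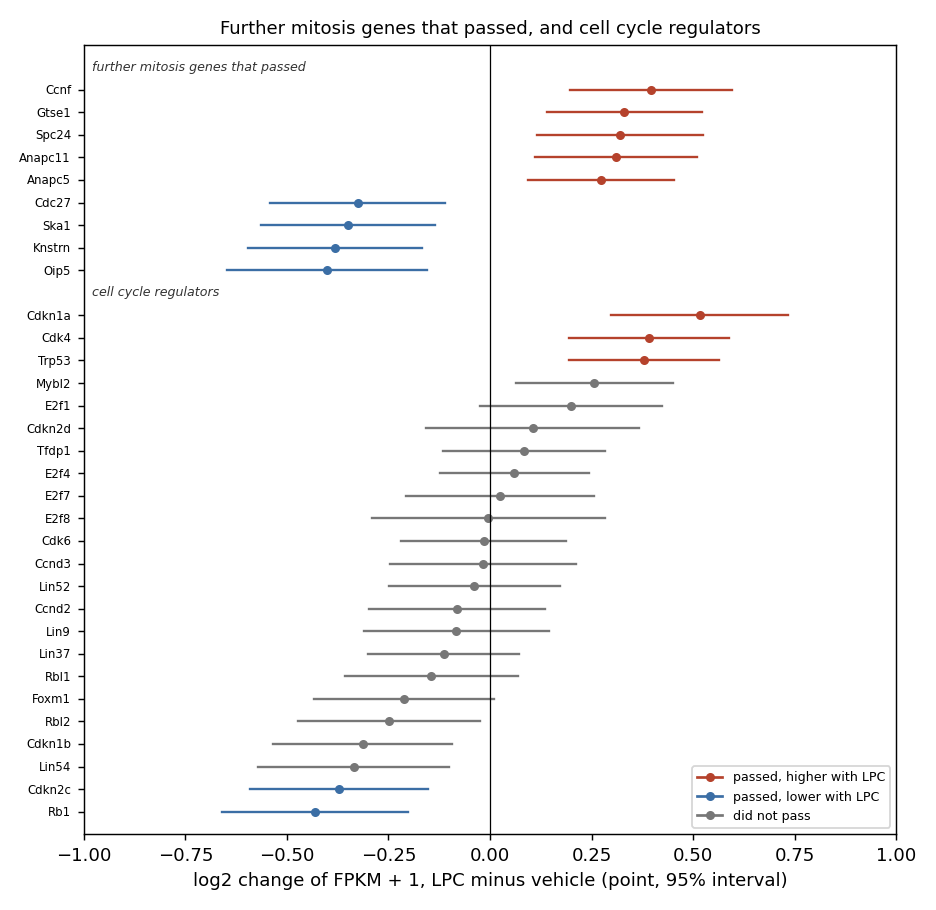
Log2 change of FPKM + 1, LPC minus vehicle, with its 95% interval, for the 9 further mitosis genes that passed and for all 23 cell cycle regulators. Cdkn1a (0.52), Cdk4 (0.39) and Trp53 (0.38) lie to the right of 0 and Rb1 (-0.43) and Cdkn2c (-0.37) to the left as passed, while Foxm1 and Mybl2 lie on opposite sides without passing.

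Genes of the preceding phase, G1/S and DNA replication, are given beside these for comparison. Of 50 such genes 6 rose with LPC and none fell (12% passed, against 13.7% of all tested genes in either direction and 5.82% higher), with a median log2 change of 0.12, against 0.01 for the 40 mitosis genes. The difference between the lists was not tested, and both were chosen with earlier results of these data known. Cdc6, which licenses replication origins, had 28.5, 30.5 and 24.3 FPKM with LPC, against 22.5, 21.65 and 18.2 FPKM with vehicle (0.40, limma adjusted p = 0.0282). Dut, which clears dUTP, had 46.5, 48.45 and 62.2 FPKM with LPC, against 42.1, 36.2 and 39.6 FPKM with vehicle (0.40, limma adjusted p = 0.0329). Chaf1b, a histone chaperone subunit, had 17.9, 17.9 and 18.3 FPKM with LPC, against 13.8, 14.7 and 12.7 FPKM with vehicle (0.37, limma adjusted p = 0.0182). These had the 3 largest changes among those that passed, and their groups did not overlap. Cdc6 lost its call without LPC replicate 1 or 2 or any vehicle replicate (0.0504 to 0.102). Dut lost it without LPC replicate 3 or any vehicle replicate (0.0559 to 0.123), and Chaf1b without LPC replicate 1 or vehicle replicate 1 or 3 (0.0520 to 0.0805). Cdc6 (limma adjusted p = 0.1037) and Dut (0.1218) also lost their calls without a filter on low values, and Dut after median centring (0.05675).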

How the data were processed

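RNA was sequenced on a BGISEQ-500 and reads were aligned to GRCm38 with Bowtie2, per the labels' protocols. The authors deposited 1 file of FPKM per library, estimated by expectation maximization per the labels' protocols. The sources used here do not give tool versions, settings or strand handling, and reads shared between similar genes are divided by estimate. No read counts are held, so no count test was run.

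Groups came from the agent in the labels. A model with LPC or vehicle as its only term was fitted to log2(FPKM + 1) of the 6 libraries by limma-trend (limma 3.58.1, R 4.3.3). It covered the 10138 genes that reached 1 FPKM in at least 3 libraries, and p-values were adjusted over all of them by the Benjamini-Hochberg method. The script was tested on simulated data. Of 18046 gene identifiers, 17918 (99.3%) matched the RefSeq table of GRCm38.p6, the source of coordinates and promoter windows. Transcript lengths and GC shares came from GENCODE M21 transcripts matched to RefSeq. Values are given per library for named genes that passed under any setting, for the 3 highest and 3 lowest changes and for members of shared complexes, among others by a written rule. The members and lists were chosen with earlier results of these data known. Alternatives were quantile normalization, median centring, no filter, a pseudocount of 0.1, a mean of at least 5 FPKM, a block for replicate number, removal of GC and length trends (splines with 4 degrees of freedom) with and without that block, and leaving out each library.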

Additional observations from a re-analysis of the deposited data

How the results depend on the processing

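The median log2 change over the 40 mitosis genes stayed between -0.04 and 0.09 under every alternative. The number of these genes that passed was 2 as reported, 1 without a filter on low values, 7 with GC and length trends removed and between 0 and 4 when 1 library was left out. It was 0 without vehicle replicate 1, 1 without LPC replicate 1 or vehicle replicate 2, and 4 without LPC replicate 3. For the 111 further mitosis genes the reported 9 became 5 with median centring, 1 without a filter and 0 to 19 with 1 library left out. For the 50 G1/S genes the reported 6 became 1 without a filter, 15 with GC and length trends removed and 1 to 5 with 1 library left out. Over all genes the reported 1392 (590 higher, 802 lower) became 464 without a filter, 2331 with GC and length trends removed and 513 to 2026 with 1 library left out. The split was 648 higher and 620 lower with quantile normalization and 646 higher and 571 lower with median centring.

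The replicate numbers do not pair the samples by the labels, and same-numbered libraries had correlated deviations of 0.02, 0.56 and 0.41 for numbers 1 to 3. Each LPC library correlated best with the vehicle library of its own number, a hint from the data and not from the design. The reverse failed for vehicle replicate 1, which had r = 0.06 with LPC replicate 3 and 0.02 with LPC replicate 1. With the replicate block, 7 mitosis genes, 21 further mitosis genes, 11 G1/S genes and 2841 genes in all passed. With GC and length trends removed and the replicate block together, the counts were 8, 16, 18 and 2880. Top2a passed only in that setting (log2 change 0.19, limma adjusted p = 0.0473). The cause of these differences was not tested.

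The counts below leave out cell type markers such as Stat4 and genes named only beside others, such as Cdc23 and Spc25. Among the named genes counted no called change reversed. For the 19 of them that passed, 179 repeat fits kept the call and 87, in 18 genes, lost it. For the named genes that did not pass, 745 repeat fits left them so and 35, in 13 genes, made a call, among them Lin54, Cdkn1b and Rbl2 with the replicate block. In 95 repeat fits of 29 genes an uncalled change took the other sign, and the largest of these as reported was 0.15 in size. The number of libraries limits precision, and read depth is an estimate.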
